A study of Rattus norvegicus with 6 samples.

Results

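The enzymes that supply NADPH in the cytosol, and the pentose phosphate pathway that supplies much of it, were followed in the renal cortex of rats given potassium bromate, an oxidising salt that is toxic to the kidney. The 7 genes were Pgls and Pgd of the oxidative branch of the pathway, Rpia, Tkt and Taldo1 of its non-oxidative branch, and Me1 and Idh1, which make NADPH outside it. Members were every non-control probe whose transcript accession is paired with one of these symbols in the RefSeq gene table. That gave 10 probes of 6 genes, out of 61537 probes and 15645 named genes on the array. Pgls, Tkt and Taldo1 had 1 probe each, Rpia and Idh1 had 2 and Me1 had 3. No probe was named Pgd, which is therefore not analysed here. All 10 probes were well above background on all 6 arrays, so each entered whatever the filter for dim probes. Their adjusted p-values did change with that filter.

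The animals were male Sprague-Dawley rats bought at 5 weeks of age and kept on a basal diet. For 4 weeks 3 of them received water and 3 received potassium bromate at 100 mg/kg/day. The labels give the 3 animals of a group as biological replicates, and RNA of each animal was read on 1 single-colour array. No source used here gives the route of dosing. The array records RNA of the whole cortex, in which fewer cells of a type and less RNA per cell cannot be told apart.

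NADPH is the reducing agent with which cells regenerate glutathione and thioredoxin, the carriers of the defence against oxidants. The oxidative branch of the pentose phosphate pathway makes NADPH while turning a glucose phosphate into a pentose phosphate; the lactonase Pgls acts within it, and 6-phosphogluconate dehydrogenase (Pgd) after Pgls. The non-oxidative branch then turns pentose phosphates back into glycolytic sugars, so that carbon can pass through the oxidative steps again. Malic enzyme (Me1) and cytosolic isocitrate dehydrogenase (Idh1) make NADPH from malate and isocitrate. Several of these genes are known targets of NRF2, the transcription factor of the oxidative stress response, in other settings.

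Depth on an array is set by signal over background. The share of probes well above background ranged from 57.9% to 63.1% per array, with 0 saturated spots. By the file headers 5 arrays lay on a common slide and water replicate 1 on another. Markers of the cortex were present: all 15 markers of the convoluted proximal tubule and all 7 podocyte markers were well above background on all 6 arrays. A level is the log2 signal minus that of the array's own 75th percentile, and differences are bromate minus water with their standard errors, n = 3 per group throughout. Levels of different probes are not set against each other, since probes differ in how strongly they bind. Precision is limited by having 3 arrays in each group.

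The stretches upstream of 3 members are shown because 2 of them, Me1 and Idh1, hold the letters of the NRF2 binding core and the other, Rpia, is the member with the largest difference. The motif searched was TGACNNNGC, the core of the antioxidant response element, on both strands of the 250 bases before the RefSeq start site (build GRCr8). Of the 6 members with an entry, 2 held it and 4 (Pgd, Tkt, Taldo1 and Rpia) did not, while 10.1% of 33469 upstream stretches of the same length did. Capitals mark the match. In Me1 it begins 167 bases before the start site and overlaps TGACTCA, the letters of an AP-1 site. In Idh1 it begins 83 bases before the start site. A match is a description of the letters and not a shown binding site. Pgls was not matched to an entry. The stretches lie at chr8:96540245-96540494 (minus strand) for Me1, chr9:74049475-74049724 (minus strand) for Idh1 and chr4:104307719-104307968 (minus strand) for Rpia, and each is written 5′ to 3′ on the strand of its gene.
Me1: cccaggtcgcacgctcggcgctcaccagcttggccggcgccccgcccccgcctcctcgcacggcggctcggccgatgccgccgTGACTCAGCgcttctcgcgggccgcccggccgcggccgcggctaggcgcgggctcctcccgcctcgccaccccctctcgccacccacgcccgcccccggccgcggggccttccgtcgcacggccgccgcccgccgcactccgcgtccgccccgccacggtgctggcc
Idh1: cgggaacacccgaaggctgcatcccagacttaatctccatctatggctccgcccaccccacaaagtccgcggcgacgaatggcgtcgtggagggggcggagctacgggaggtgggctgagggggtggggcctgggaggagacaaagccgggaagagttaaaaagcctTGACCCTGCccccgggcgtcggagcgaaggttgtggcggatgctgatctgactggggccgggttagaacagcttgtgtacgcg
Rpia: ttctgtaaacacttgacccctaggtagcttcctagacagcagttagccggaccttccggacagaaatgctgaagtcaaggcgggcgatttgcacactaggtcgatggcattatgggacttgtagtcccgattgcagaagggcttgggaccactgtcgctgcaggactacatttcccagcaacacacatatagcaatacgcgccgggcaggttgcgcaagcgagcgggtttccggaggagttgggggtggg

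The comparison asked how RNA of these enzymes differed in the cortex under potassium bromate. None of the 10 probes passed the test, limma with Benjamini-Hochberg adjustment over all 37783 probes tested at a threshold of 0.05. Among all probes tested 14.8% passed (7.19% upward and 7.60% downward), and 4 of the 10 member probes had an unadjusted p under 0.05, against 33.1% of all probes. The members differed among themselves. Rpia had higher values under bromate (1.60-fold and 1.63-fold by its 2 probes), and Idh1 had lower values (1.58-fold by both). Pgls, Tkt and Taldo1 lay within 1.042-fold of their water means. Me1 had lower means under bromate by all 3 probes, within a wide spread among the water arrays. The 3 water and the 3 bromate values did not overlap for 4 of the 10 probes, those of Rpia and Idh1, against 41.1% of all probes tested. The 2 Rpia probes were higher under bromate (20.0% of all probes) and the 2 Idh1 probes lower (21.1%), so these shares were at the background.

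**Figure D1:**
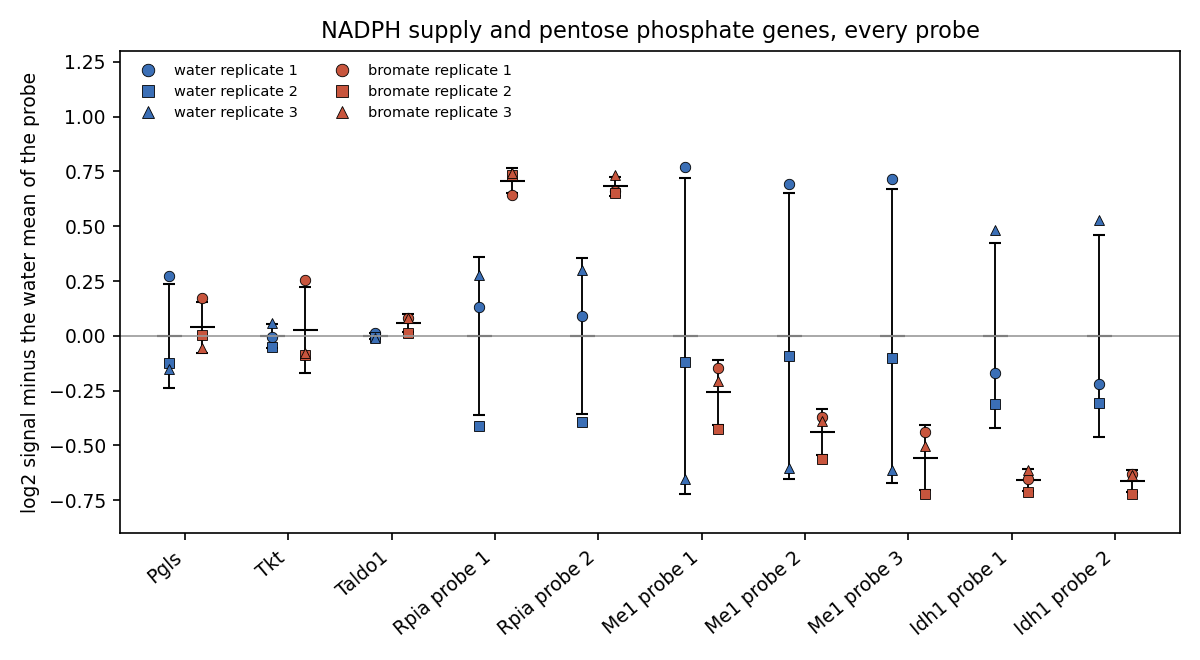
Log2 signal of each of the 10 member probes on each array, minus the mean of the 3 water arrays of the same probe; points are arrays, dashes are group means and bars are 1 SD (n = 3). The bromate points of Rpia lie above, and those of Idh1 below, all water points of the same probe, while the water points of Me1 span more than 1.2 log2 units.

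In the oxidative branch, Pgls, which encodes the lactonase that opens the ring of 6-phosphogluconolactone, had levels of 2.36, 1.97 and 1.94 on water replicates 1 to 3 and 2.26, 2.09 and 2.04 on bromate replicates 1 to 3. The groups overlapped, with the highest of the 6 values on a water array. The difference was 0.04 ± 0.14 (adjusted p = 0.873 by limma), with a 95% confidence interval from 0.806-fold to 1.31-fold. A difference of 0.57 on the log2 scale would have been needed to pass the test at this spread. The sign of the Pgls difference turned on leaving out water replicate 2 (-0.022), water replicate 3 (-0.037) or bromate replicate 1 (-0.026), and without water replicate 1 the difference was 0.18.

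The non-oxidative branch held the member with the smallest spread and the one with the largest difference. Taldo1 encodes transaldolase, which moves a 3-carbon unit between sugar phosphates. Its levels were 5.27, 5.25 and 5.24 in the water group against 5.33, 5.27 and 5.34 in the bromate group. Both groups were narrow and they overlapped only just, the lowest bromate value lying just under the highest water value. The difference of 0.06 ± 0.07 (adjusted p = 0.605 by limma) had an interval from 0.923-fold to 1.18-fold, the narrowest among the members. Only 0.842% of all probes tested had a smaller range over the water arrays than Taldo1.

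Tkt encodes transketolase, which moves a 2-carbon unit with the help of thiamine diphosphate. Its levels were 7.60, 7.55 and 7.66 in the water group against 7.86, 7.51 and 7.52 in the bromate group. Bromate replicate 1 stood above all water arrays and the other two bromate arrays below them. The difference was 0.03 ± 0.12 (adjusted p = 0.892 by limma), with an interval from 0.834-fold to 1.25-fold. Without bromate replicate 1 it was -0.09 (adjusted p = 0.545 by limma), so the sign of the Tkt difference rests on that array.

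Rpia encodes ribose-5-phosphate isomerase, which links ribulose phosphate from the oxidative branch to ribose phosphate for nucleotides. By probe A_44_P391726, drawn as Rpia probe 1, its levels were 1.08, 0.54 and 1.22 in the water group against 1.59, 1.68 and 1.69 in the bromate group. By probe A_64_P139168, drawn as probe 2, the water arrays read 1.34, 0.86 and 1.55 and the bromate arrays 1.92, 1.90 and 1.99. Both probes put water replicate 2 lowest and all 3 bromate arrays close together above every water array. The difference was 0.71 ± 0.19 (adjusted p = 0.0554 by limma) for the first of these probes and 0.68 ± 0.18 (adjusted p = 0.0578) for the other. The intervals ran from 1.19-fold to 2.24-fold and from 1.18-fold to 2.19-fold. Rpia therefore lay just outside the threshold, and the largest unadjusted p that passed was 0.00739, against 0.00898 and 0.00972 for its probes. A difference of 0.74 and of 0.73 would have been needed at their spread.

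The call of Rpia changed with the processing. Both probes passed when only probes well above background on all 6 arrays were tested (adjusted p = 0.0449 and 0.0472 by limma), with an intensity trend and robust variance (0.0373 and 0.0389) and with array weights (0.0416 and 0.0492). Probe 1 alone passed with normexp correction and quantile normalization (0.0382). Neither passed on leaving out any 1 array, and without water replicate 2, the array with the lowest Rpia values, the differences were 0.50 and 0.49.

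Me1 encodes cytosolic malic enzyme, which turns malate into pyruvate and makes NADPH. By probe A_42_P792817, drawn as Me1 probe 1, its levels were 4.979, 4.089 and 3.553 on water replicates 1 to 3 and 4.062, 3.784 and 4.002 on bromate replicates 1 to 3. By probe A_43_P11481, drawn as probe 2, they were 2.65, 1.87 and 1.36 in the water group against 1.59, 1.40 and 1.57 in the bromate group. By probe A_64_P136153, drawn as probe 3, they were 3.03, 2.21 and 1.70 in the water group against 1.87, 1.59 and 1.81 in the bromate group. All 3 probes gave the water arrays the same order, with water replicate 1 highest of all 6 arrays, and the bromate arrays inside or just under the lower part of the water range. From water replicate 3 to water replicate 1 the level differed 2.69-fold, 2.45-fold and 2.51-fold by the 3 probes. That range was wider than in 95.7% to 96.5% of all probes tested. Among the bromate arrays the range was 1.21-fold, 1.14-fold and 1.22-fold.

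The Me1 differences were -0.26 ± 0.35, -0.44 ± 0.32 and -0.55 ± 0.33 for probes 1, 2 and 3 (adjusted p = 0.649, 0.384 and 0.295 by limma). With the spread of the water arrays, a difference of 1.27 to 1.40 would have been needed to pass. Without water replicate 1, which also leaves only the arrays of the shared slide, the differences were 0.13, -0.09 and -0.20. The sign of probe 1 turned, so neither a rise nor a fall of Me1 was measured.

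Among the water arrays, several list means had the order of the Me1 levels, including those of straight-tubule markers, fat cell markers, injured-tubule markers, dividing-cell markers, NRF2 targets, enzymes that use NADPH and lipogenic genes. For the proximal straight tubule the mean over 16 measured genes was 2.64, 1.58 and 0.62 on water replicates 1 to 3 and 0.65, 0.12 and 0.85 on bromate replicates 1 to 3. Of the 16 genes 1 rose and 0 fell (6.25% called, against 17.3% of named genes), and 13 were well above background on all arrays. The gene that rose, Bcat1, which encodes an aminotransferase of branched-chain amino acids and was named after its value was seen, had a difference of 3.41 ± 0.18 (adjusted p = 0.00102 by limma), with 2 of 3 water arrays well above background. Slc7a13, an amino acid carrier of that segment, had levels of 7.61, 4.83 and 2.54 on the water arrays, 1.72, -0.61 and 2.01 on the bromate arrays and a difference of -3.96 ± 1.38 (adjusted p = 0.107 by limma). Markers of fat cells, in which Me1 is also active, had a mean of -1.27, -1.88 and -2.22 in the water group against -2.03, -1.72 and -1.58 in the bromate group. Of 6 measured fat cell markers 1 rose and 0 fell (16.7% called). Lep and Retn did not pass the filter on dim probes and Plin1 had no named probe. The mean of 15 glutathione and thioredoxin targets of NRF2 was 3.49, 3.20 and 2.93 over water replicates 1 to 3, and 4.29, 3.90 and 3.89 over bromate replicates 1 to 3. What these cells and genes contribute to the Me1 values was not tested.

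**Figure D2:**
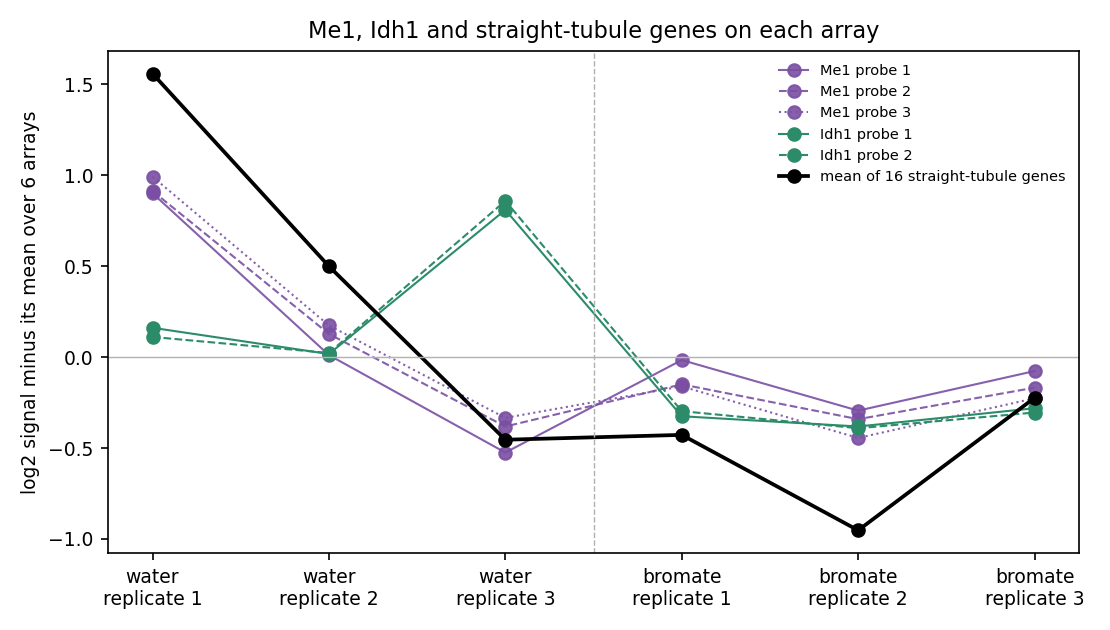
Log2 signal of the 3 Me1 probes, the 2 Idh1 probes and the mean of 16 straight-tubule genes on each array, each minus its own mean over the 6 arrays; lines only join the points of one probe or mean and show no order. Water replicate 1 is highest for Me1 and for the straight-tubule mean, and water replicate 3 is highest for Idh1.

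Idh1 encodes the cytosolic and peroxisomal isocitrate dehydrogenase, which makes NADPH while turning isocitrate into 2-oxoglutarate. By probe A_43_P12569, drawn as Idh1 probe 1, its levels were 5.48, 5.33 and 6.13 in the water group against 4.99, 4.94 and 5.04 in the bromate group. By probe A_64_P055450, drawn as probe 2, they were 4.43, 4.34 and 5.18 in the water group against 4.02, 3.93 and 4.01 in the bromate group. Every bromate value lay below every water value by both probes, and water replicate 3 stood above the other two water arrays. The differences were -0.66 ± 0.21 (adjusted p = 0.0904 by limma) and -0.66 ± 0.23 (adjusted p = 0.106). On the scale of folds, the bromate level was 0.633 and 0.632 of the water level, with intervals from 0.442 to 0.908 and from 0.429 to 0.932. Without water replicate 3 the Idh1 differences were -0.42 and -0.40 (adjusted p = 0.0796 for both), over 1.5 times smaller in size than with it.

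Markers of tubule segments were lower beside Idh1. Of 15 markers of the convoluted proximal tubule 6 fell and 0 rose (40% called, against 17.3% of named genes). Their mean was 5.70 to 5.92 in the water group against 5.45 to 5.51 in the bromate group. Like Idh1, that mean was highest on water replicate 3, as were the means of collecting duct, podocyte and endothelium markers. Among the water arrays it was lowest on replicate 1 (5.70), while Idh1 was lowest on replicate 2. Of 11 thick limb and distal tubule markers 9 fell and 1 rose (90.9% called), with means of 3.51 to 3.56 and 1.82 to 1.98. Of 11 collecting duct markers 8 fell and 0 rose (72.7% called), with means of 3.58 to 3.95 and 2.44 to 2.62. Of 10 markers of the injured tubule 6 rose and 0 fell (60% called), with means of 0.42 to 0.72 and 3.09 to 3.80. Havcr1, which marks injured proximal tubule cells, was higher by 8.11 ± 0.35 on the log2 scale. Beside Rpia, 4 of 9 markers of dividing cells rose (44.4% called, against 17.3% of 11572 named genes, each by its brightest probe). Their mean was -0.71, -0.82 and -1.11 on water replicates 1 to 3 and -0.72, 0.35 and 0.23 on bromate replicates 1 to 3. On bromate replicate 1 it lay inside the water range, while both Rpia probes were above every water array there. Of 14 macrophage and monocyte markers 2 rose (14.3%), a share below that of named genes. The part of these cells in the Idh1 and Rpia values was not tested.

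Spread within the groups was uneven for several members. For 8 of the 10 probes the 3 water arrays spanned a wider range than the 3 bromate arrays, the exceptions being Tkt and Taldo1, while in 51.7% of all probes the water range was the wider. Those 8 were the probes of Pgls, Rpia, Idh1 and Me1, and probes of the same gene are not separate observations. For Rpia the SD was 0.36 by both probes in the water group against 0.06 and 0.04 on the bromate arrays. For Idh1 it was 0.42 and 0.46 in the water group against 0.05 by both probes on the bromate arrays. For Me1 it was 0.65 to 0.72 against 0.11 to 0.15. These wide water groups set the standard errors of Rpia, Idh1 and Me1. The arrays that stood out differed by gene: water replicate 2 was lowest for Rpia, water replicate 3 was highest for Idh1 and water replicate 1 was highest for Me1.

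The profile of Rpia probe 1 was set beside all 10686 named genes well above background on all arrays, by the root mean square distance between log2 profiles after each was reduced by its mean over the 6 arrays. The nearest genes were Hells, which encodes a chromatin remodeller of the helicase family (distance 0.08), Rtn4ip1, which encodes a mitochondrial oxidoreductase (0.09), and Otud4, which encodes a deubiquitinase (0.12). Their differences were 0.69 ± 0.18, 0.77 ± 0.23 and 0.59 ± 0.12, of which that of Otud4 passed (adjusted p = 0.0321 by limma).

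Among other genes of NADPH supply and of the folate steps beside it, changes in both directions were measured. Each gene is represented by its probe with the highest mean. Of 14 measured genes 3 rose, 3 fell and 8 did not pass (42.9% called, against 17.3% of 11572 named genes, 8.76% upward and 8.54% downward), and the list median was -0.04, beside -0.02 over all named genes.

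Among the genes that rose were a pair of mitochondrial folate enzymes. Not every listed enzyme makes NADPH itself. The Mthfd1l enzyme does not, and the pair is listed for its pathway, so its RNA is no measure of NADPH supply. Mthfd2 rose 3.62-fold (1.86 ± 0.15, with 5 of 5 probes called). Mthfd1l passed with a difference of 2.63 ± 0.40, but was well above background on 1 of 3 water arrays and on all 3 bromate arrays. It thus entered the fit mainly through the bromate arrays, and the filter on all 6 arrays left it out. Its difference ran from 1.41 to 3.11 over 18 alternatives. It was not called with the replicate block, without water replicate 2 or without bromate replicate 2. Nnt, the mitochondrial transhydrogenase that makes NADPH from NADH, fell 1.51-fold (-0.59 ± 0.11, with 2 of 3 probes called). The other two that fell, named after their values were seen, were Idh2, the mitochondrial counterpart of Idh1 (-0.53 ± 0.11, adjusted p = 0.0298), and Mthfd1, the cytosolic folate enzyme (-0.58 ± 0.13, adjusted p = 0.0395). The Idh2 levels were 7.38, 7.30 and 7.60 in the water group against 6.88, 6.83 and 6.99 in the bromate group, so Idh2, like Idh1, was highest on water replicate 3. Leaving out water replicate 2 or bromate replicate 2 left 1 gene that rose, and leaving out water replicate 3, bromate replicate 1 or bromate replicate 3 left 2. For the genes that fell, 1 was left on omitting water replicate 1, bromate replicate 1 or bromate replicate 3, and 0 on omitting any of the other arrays. Calls among all probes tested also dropped on every omission. With all arrays 2717 rose and 2872 fell, and without 1 array 871 to 2064 rose and 785 to 2310 fell. The counts after omissions in the lists that follow carry the same limit.

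**Figure D3:**
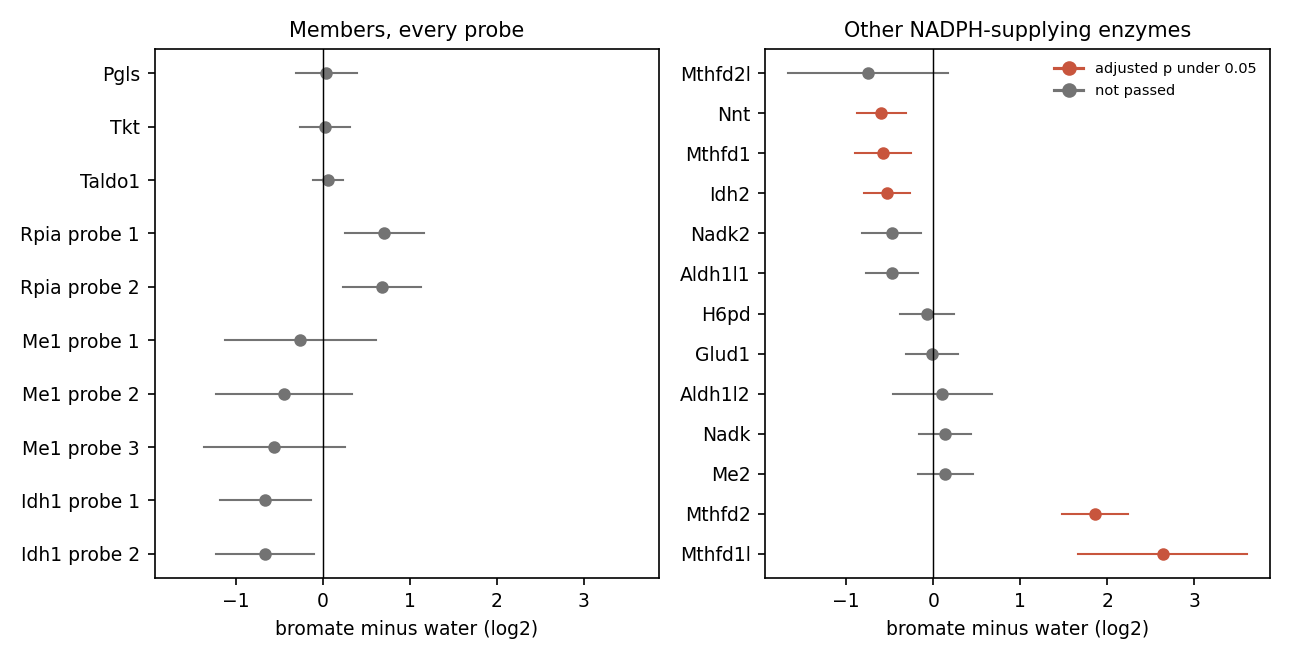
Bromate minus water on the log2 scale with 95% confidence intervals (limma, n = 3 per group) for the 10 member probes on the left. On the right is the brightest probe of genes listed with other NADPH-supplying enzymes. Not all of these make NADPH themselves, and Mthfd2 and Mthfd1l are listed for their pathway. No member interval stands apart from 0 far enough to pass after adjustment, while Mthfd2 and Mthfd1l lie above 0 and Nnt, Mthfd1 and Idh2 below it.

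Around Rpia, Tkt and Taldo1 in pentose metabolism, 4 of 14 measured genes fell, 0 rose and 10 did not pass (median -0.24). The share called was 28.6%, against 17.3% of named genes. The 4 that fell were Prps2, which encodes an enzyme that takes ribose phosphate into nucleotide synthesis (-1.21 ± 0.23, 2.32-fold lower), the xylulose reductase gene Dcxr (-0.61 ± 0.11), the xylulokinase gene Xylb (-0.54 ± 0.13, with 1 of 2 probes called) and the aldehyde reductase gene Akr1a1 (-0.44 ± 0.10). Omitting water replicate 1 or bromate replicate 1 left 1 gene that fell, omitting bromate replicate 3 left 2, and omitting any of the other arrays left 0.

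Of 25 enzymes that use NADPH, 5 rose, 1 fell and 19 did not pass (median 0.12). The share called was 24%, against 17.3% of named genes. Those that rose included Sqle (0.81 ± 0.14), the thioredoxin reductase gene Txnrd1 (0.72 ± 0.14, with 2 of 4 probes called), the biliverdin reductase gene Blvrb (0.68 ± 0.09, with 2 of 3) and, named after its value was seen, the carbonyl reductase gene Cbr1 (0.58 ± 0.12, with 2 of 3). The aldehyde reductase gene Akr7a2 fell (-0.68 ± 0.12). Gsr, the glutathione reductase gene that uses the NADPH of these pathways, had a difference of 0.02 ± 0.12, with an interval from 0.826-fold to 1.24-fold. The quinone reductase gene Nqo1 did not pass by its brightest probe (1.50 ± 0.40, adjusted p = 0.0556 by limma) and passed by its other probe (adjusted p = 0.0331). Omitting bromate replicate 1 left 3 genes that rose, omitting water replicate 2, water replicate 3 or bromate replicate 2 left 2, and omitting bromate replicate 3 left 1. Akr7a2 kept its call without water replicate 1 or bromate replicate 1 and lost it on omitting any of the other arrays.

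Of 15 glutathione and thioredoxin targets of NRF2 that supply no NADPH, 6 rose, 0 fell and 9 did not pass (median 0.39). The share called was 40%, against 17.3% of named genes. Among those that rose, the largest differences were in Gstm1 (3.23 ± 0.72), Gpx2 (2.58 ± 0.17), Srxn1 (2.17 ± 0.17) and Hmox1 (2.12 ± 0.24). Gstm1 lost its call in 8 of 19 alternatives, while the other 3 kept theirs in all 19. Among those that did not pass, Gclc (-1.95 and -1.80 by its 2 probes) and Osgin1 (-1.01) had differences below 0. The members Me1 and Idh1, whose upstream stretches hold the letters of the NRF2 core, did not pass. The sign of Me1 probe 1 turned without water replicate 1, and the part of NRF2 in the values of both genes was not tested. Of 7 carbohydrate-response and lipogenic genes, a group in which Me1 is often counted, 0 passed by limma while 3 had an unadjusted p under 0.05 (against 33.1% of all probes tested), with a median of -0.04, and the brightest, Acly, had a difference of 0.14 ± 0.11. Of the 2 probes of Elovl6, a fatty acid elongase gene named after its values were seen, the other one passed (0.71, adjusted p = 0.0426 by limma). Without water replicate 3, 1 gene of the list fell.

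**Figure D4:**
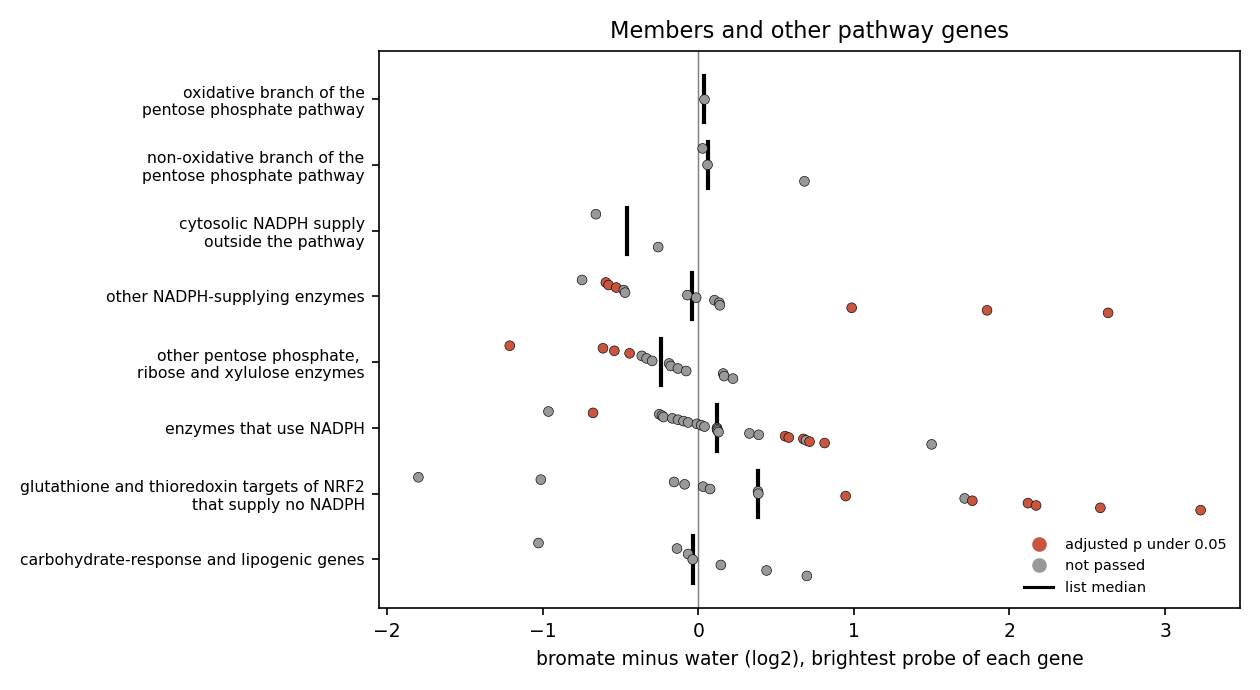
Bromate minus water on the log2 scale for the brightest probe of each gene, by list; points are genes, filled by call, and vertical bars are list medians. The members lie between -0.66 and 0.68 with no call. Called genes lie on both sides of 0 among other NADPH-supplying enzymes and among enzymes that use NADPH. They lie below 0 in pentose metabolism and above 0 among NRF2 targets, and no lipogenic gene was called.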

How the data were processed

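Total RNA of the renal cortex of 6 rats was labelled with Cy3 and each read on an Agilent array of its own, as the labels' protocols describe. The submitters' processing notes name Feature Extraction 10.7, and the arrays are of a design annotated to rn4, per the file headers. Per the file headers, the deposited processed signal is an intensity after background subtraction and spatial detrending, with no scaling across arrays. The authors' deposited value table holds a ratio; among values above 1 it equalled the processed signal over the 75th percentile of its array to within 0.323%, which no source states, and its column medians were 0.1043, 0.1049 and 0.1031 for water and 0.1025, 0.1055 and 0.1026 for bromate replicates 1 to 3.

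From the processed signal, log2 values minus the log2 75th percentile of the 61537 non-control probes were computed, with 0 to 4 outlier spots per array left out. Probes well above background on at least 3 of 6 arrays (37783) were fitted one by one in limma (version 3.58.1; R 4.3.3; tables read by data.table version 1.17.8), by lmFit and eBayes, and p-values were adjusted over all of them by Benjamini-Hochberg. Of all probes 28206 had 1 symbol, 0 had several and 33331 had none. Named besides the members were up to 4 called genes with the largest difference per list (the brightest where none was called), further genes that the rule fixed and the 3 genes most like the member with the largest difference. The members and lists were chosen with earlier results of these data known. The fit was tested on simulated data. Some genes that the lists count are not reported here by name. Alternatives were other scalings, normexp with the median spot and local background intensity (offset 50), the value table, other filters and units, variance models, slide and replicate number as blocks, and each array left out in turn.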

Additional observations from a re-analysis of the deposited data

How the results depend on the processing

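Of the member probes, Taldo1 and Idh1 kept their direction and stayed short of the threshold in the alternatives run for them (19 for Taldo1 and Idh1 probe 1, 18 for Idh1 probe 2), as did Me1 probes 2 and 3 (18); the fit of 1 probe per gene used only the brightest probe. Passing Rpia probes numbered 1 with normexp and quantile normalization and 2 with a filter on all 6 arrays, an intensity trend with robust variance, or array weights. Signs turned for Me1 probe 1 with slide as a block and without water replicate 1 (0.13 in both, since the block takes that array out), for Tkt with array weights (-0.027), and for Tkt and Pgls on leaving out 1 array. Without 1 array the differences ranged from -0.59 to 0.13 for Me1 probe 1, from -0.085 to 0.086 for Tkt and from -0.037 to 0.18 for Pgls. The cause was not tested.

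Probes that rose and fell in the whole table numbered 2717 and 2872, 1091 and 1023 with no filter on dim probes, and 829 and 757 with the replicate block; without 1 array they ranged from 871 to 2064 and from 785 to 2310. Other NADPH-supplying genes that fell numbered 0 with no filter or the replicate block, 1 with slide as a block and 5 with the trend or array weights. In pentose metabolism genes that fell numbered 0 with no filter or the replicate block and 1 with slide as a block. Enzymes that use NADPH and rose numbered 1 with no filter and 2 with the replicate block, and 0 fell with no filter. In the lipogenic list 1 fell with normexp, with the filter on all 6 arrays and with the trend. Without 1 array, the ranges were 1 to 3 (rose) and 0 to 1 (fell) for NADPH supply, 0 to 2 (fell) for pentose metabolism, 1 to 4 and 0 to 1 for enzymes that use NADPH, 4 to 5 (rose) for NRF2 targets and 0 to 1 (fell) for the lipogenic list. No member was called in the main fit or with the replicate block, which also lowered the calls among all probes. An unchanged call among the members therefore says little. Deviations of arrays with the same replicate number correlated at 0.056, 0.073 and -0.091. Whether the numbers stand for shared handling was not tested. With 3 arrays a group, the difference needed to pass ran from 0.28 (Taldo1) to 1.40 (Me1 probe 1) on the log2 scale.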
